A study of Rattus norvegicus with 10 samples.

Results

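Carbonic anhydrases are zinc enzymes that interconvert carbon dioxide and bicarbonate, and the family spreads over the cytosol, the mitochondrial matrix, the cell surface and secretions. In hepatocytes they supply bicarbonate to urea and glucose synthesis and take part in pH control and bile formation, and some relatives carry the same fold without catalytic activity. The 10 genes described here, of 14217 measured, are Car1, Car2, Car3, Car4, Car5a, Car5b, Car8, Car9, Car12 and Car14. They were chosen by gene symbol, and all 10 were measured, by 15 probe sets in all, with 2 probe sets for each of 5 genes. The family was selected on the HMB-control differences of these same arrays. Those differences are therefore given with their errors as a description, no p-value is printed for any of the 10 genes, and counts of those past a threshold restate the selection and are no evidence.

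Liver RNA came from 10 Harlan Sprague Dawley rats, each on 1 Affymetrix rat whole-genome array. The 5 rats of the HMB group were fed HMB (2-hydroxy-4-methoxybenzophenone, or oxybenzone, an ultraviolet filter) in the NTP-2000 diet for 13 weeks, at 10000 ppm, and 5 controls ate the same diet at 0 ppm. The dose label of HMB 1 read 0 ppm, against its title and chemical label, which both placed it in the HMB group, where it was kept. Age and sex were not given in the labels. Animals were caged 5 together, and if a cage held a whole group, cage and HMB cannot be told apart. Separate animal numbers were given for the 10 rats.

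The liver label and the animals were checked against marker transcripts. Alb, the main hepatocyte secretory product, lay between 14.49 and 14.64 on the log2 scale in all 10 rats. The Y-linked transcripts Eif2s3y and Uty lay between 8.63 and 9.17 and between 7.56 and 8.02 in all 10, and Xist, which is transcribed from an inactive X chromosome, between 2.20 and 2.70. Array measures moved with the groups. Within an array, log2 values had a standard deviation of 2.43 to 2.495 in controls and 2.38 to 2.43 in HMB. The signal of poly-A control transcripts relative to hybridisation controls was -2.19 to -1.90 in controls, -1.92 and -1.96 in HMB 1 and HMB 2, and -1.78 to -1.47 in HMB 3 to HMB 5. Dim genes tended to read higher and bright genes lower in HMB. The median log2 difference was 0.11, 0.03, -0.12 and -0.07 in the 4 quartiles of genes from the dimmest to the brightest. The part of these array measures in the results that follow was not tested, except that fits with a covariate or another normalization are given where they matter. The number of arrays limits the precision of every value. A lower signal in whole liver can mean fewer cells of a type or less RNA per cell, and these cannot be told apart.

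Across the family, Car1 stood apart with a signal in HMB livers at 0.480 times that of controls, while the other 9 genes had log2 differences between -0.20 and 0.42. Car1 was the 1 of 10 genes that passed an adjusted p of 0.05 in the limma fit over all genes, in the downward direction, where 0.957% of all genes passed downward and 1.72% in either direction. At the level of probe sets, 1 of the 15 passed, again that of Car1, where 0.995% of all probe sets passed downward. HMB and control values did not overlap in 2 of the 10 genes, Car1 below and Car4 above, where 6.12% of all genes showed no overlap. The median difference of the 10 genes was 0.05, with 5 above 0 and 5 below, and that of all genes was -0.02. The family was selected with these values known, so the counts are read no further.

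**Figure D1:**
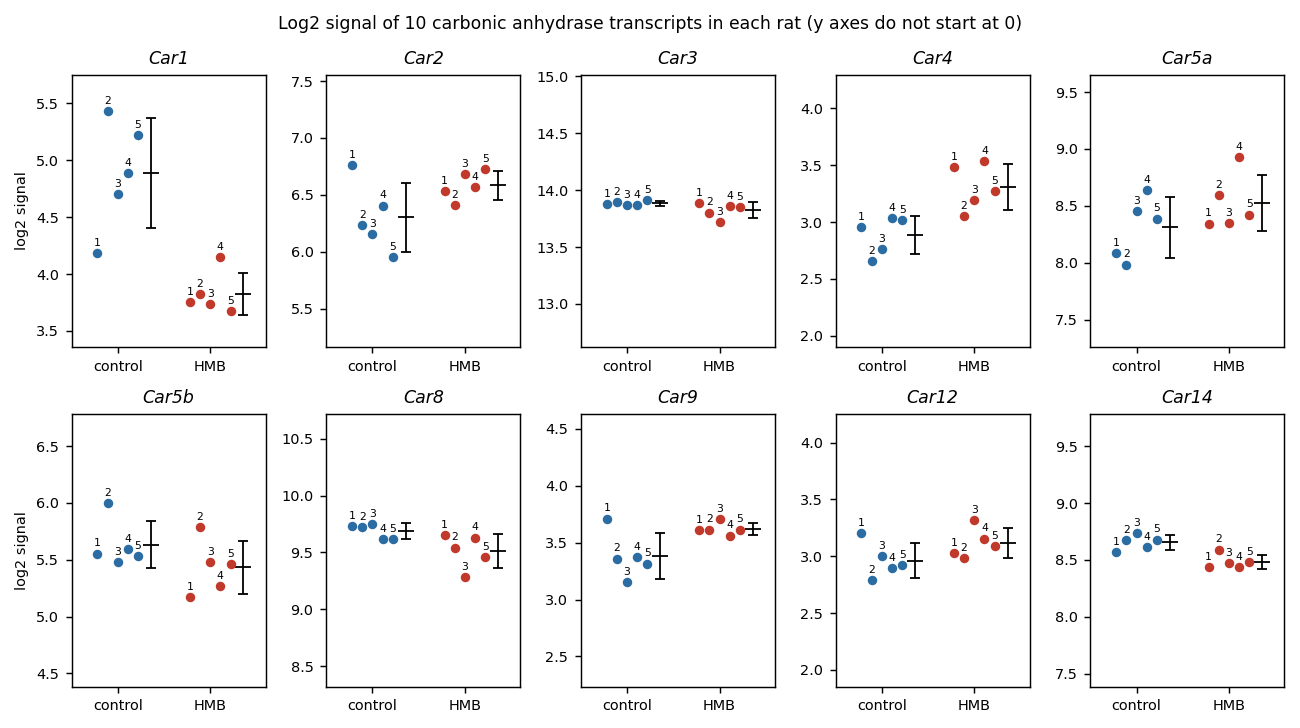
Log2 signal of the 10 genes in every rat (points, numbered by replicate within the group, control in blue and HMB in red), with the group mean and SD beside them (n = 5). Each panel spans at least 2.4 log2 units, and Car1 is the gene whose 5 HMB values, from 3.68 to 4.15, lie farthest below the controls.

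Car1 encodes the cytosolic isozyme best known from red blood cells and colon epithelium. Its log2 signal was 4.19, 5.43, 4.70, 4.89 and 5.22 in controls 1 to 5, and 3.75, 3.82, 3.74, 4.15 and 3.68 in HMB 1 to 5. All 5 HMB rats lay below all 5 controls, but the gap was only that between control 1 and HMB 4. The means were 4.89 ± 0.48 and 3.83 ± 0.19 (SD, n = 5), a difference of -1.06 ± 0.20 (SE). The controls were spread more widely than the HMB rats, and over both groups the within-group SD of 0.37 was larger than that of 95.9% of genes. The HMB mean of 3.83 lay just above 3.64, the highest mean signal in the dimmest quartile of genes. No second probe set read Car1. Whether dim signal narrowed the spread in HMB or changed the size of the difference was not tested.

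The size of the Car1 difference changed little with the processing. It was -1.13 after cyclic loess normalization and -1.08 after quantile normalization, and it ran from -1.23 without control 1 to -0.92 without control 2 as rats were left out in turn. With HMB 1 counted as a control, as its dose label has it, the difference was -0.85. The counts past the threshold among the 10 genes and over the whole array did not always move together. That of the 10 genes was 1 (Car1) after cyclic loess and after quantile normalization, where 82 and 62 of all genes passed. Without control 2, 3, 4 or 5, or HMB 2, 3, 4 or 5, it was 0, in fits where 0 to 157 of all genes passed (limma, 2772 to 3434 at an unadjusted p under 0.05) against 244 with all rats, while the Car1 difference stayed between -1.14 and -0.92. It was 1 (Car1) without HMB 1, where 353 of all genes passed, and 3 (Car1, Car2 and Car9) without control 1, where 1014 did. When the fit held the poly-A signal as a covariate, the difference was -1.07, and no gene of all 14217 was called in that fit, with 1914 at an unadjusted p under 0.05.

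Red cell transcripts were set beside Car1. Of 10 measured erythroid genes 0 passed and all 10 had a difference above 0, with a median of 0.15 against -0.02 for all genes. After cyclic loess the median was 0.05. Of the 10 genes, 5 were in the dimmest quartile, where the median of all genes was 0.11. At an unadjusted p under 0.05 there were 3, where 24.9% of all genes had one. Hbb, beta globin, read 9.80, 10.22, 10.65, 10.71 and 11.17 in controls 1 to 5 and 10.44, 10.88, 11.09, 10.90 and 10.75 in HMB 1 to 5. All HMB values lay within the range of the controls, and the difference was 0.30 ± 0.22 (SE, n = 5 per group, limma adjusted p = 0.392). Alas2, the erythroid enzyme of heme synthesis, differed by 0.40 ± 0.16 (limma adjusted p = 0.1498), and Slc4a1, the chloride-bicarbonate exchanger of the red cell membrane, by 0.39 ± 0.11 (limma adjusted p = 0.0728). In the fit that held the poly-A signal, Hbb differed by 0.03 and Alas2 by 0.13. The mean log2 signal of the erythroid list ran from 3.86 to 4.14 over controls and from 4.08 to 4.34 over HMB rats.

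Car2 encodes the fast cytosolic isozyme, known from red cells, bile duct epithelium and many secretory cells. Its brighter probe set read 6.76, 6.23, 6.16, 6.405 and 5.95 in controls 1 to 5 and 6.53, 6.41, 6.68, 6.57 and 6.73 in HMB 1 to 5. Control 1 was the highest of all 10 rats, and the other 4 controls lay below every HMB rat. The means were 6.30 ± 0.31 and 6.58 ± 0.13 (SD, n = 5), a difference of 0.28 ± 0.13 (SE). Without control 1 the difference was 0.40. The second probe set gave 0.11 ± 0.15, and it followed the first from rat to rat, with r = 0.83 and rho = 0.81 between deviations from the group means over 10 arrays. Bile duct markers showed 0 called of 5 measured, with a median of 0.01 and Krt19, a bile duct keratin, at -0.15 ± 0.25 (limma adjusted p = 0.745).

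Car3 encodes a cytosolic isozyme of low catalytic activity that is abundant in liver, muscle and fat and is known for its sex dependence in rat liver. Its brighter probe set was among the brightest on the array and among the steadiest across animals. It read 13.88, 13.90, 13.87, 13.87 and 13.92 in controls 1 to 5 and 13.89, 13.80, 13.72, 13.86 and 13.85 in HMB 1 to 5. The difference was -0.06 ± 0.06 (SE, n = 5 per group), with a 95% interval from -0.19 to 0.07, and the within-group SD of 0.05 was smaller than that of all but 1.203% of genes.

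The second, dimmer Car3 probe set varied more. It read 11.72, 12.01, 11.86, 11.71 and 11.99 in controls 1 to 5 and 12.06, 11.74, 11.14, 11.38 and 11.61 in HMB 1 to 5. HMB 3 to HMB 5 lay below all controls, while HMB 1 was the highest of all rats and HMB 2 fell among the controls. HMB 3 to HMB 5 were also the arrays with a GAPDH 3' minus 5' signal of 1.90 to 2.09, above the 1.38 to 1.77 of controls, while HMB 1 and HMB 2 were at 1.31 and 1.38. In the fit that held this measure as a covariate, the brighter Car3 probe set differed by -0.05, against -0.06 without it. The value of that fit for the second probe set is not given here. The difference of the second probe set was -0.27 ± 0.15 (SE), and the deviations of the 2 probe sets correlated with r = 0.72 but rho = 0.33 over 10 arrays.

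Car3 was set beside other sex-dependent liver genes, since no sex was labelled. Cyp2c11, the male-specific steroid hydroxylase, lay between 13.17 and 13.26 in all 10 rats, with a difference of 0.01 ± 0.06 (SE, limma adjusted p = 0.951). Cyp2c12, its female-specific counterpart, differed by -1.14 ± 0.37 (limma adjusted p = 0.0983) between means of 10.11 and 8.97. It lay between 8.27 and 10.92 in all 10 rats, which also showed signal for the Y-linked transcripts given above. Whether its probe set reads Cyp2c12 alone was not tested. Of 22 sex-biased or growth hormone-regulated genes 0 passed, 6 had an unadjusted p under 0.05 (24.9% of all genes did), and the median was 0.06. After Cyp2c12 the smallest p belonged to Stat5a, Socs2 and Bcl6. They differed by 0.29 ± 0.10, -0.89 ± 0.35 and 1.41 ± 0.57 (SE, limma adjusted p = 0.110, 0.151 and 0.155). Fat and muscle also hold much Car3. Adipoq, a fat hormone, lay between 3.28 and 3.65 and Acta1, skeletal muscle actin, between 1.85 and 2.35 in all rats. Of 7 fat and 7 muscle markers 0 passed, with medians of -0.04 and 0.16. Lpl, the lipase that frees fatty acids from lipoproteins, had the smallest p of the fat list, at -0.67 ± 0.19 (SE, limma adjusted p = 0.0746). All 7 muscle markers lay above 0, and 6 of them were in the dimmest quartile, the exception being Myh1, a myosin heavy chain, at 11.14 in controls and 11.31 in HMB. The mean of the fat list ran from 4.80 to 5.15 over controls and from 4.84 to 4.95 over HMB rats, and that of the muscle list from 3.74 to 3.93 and from 3.95 to 4.07.

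Car2, Car3, Car1 and Car13 follow each other in this order along 1 rat chromosome in the RefSeq table of assembly GRCr8, with no other protein-coding gene between them. The 3 measured neighbours did not share a direction. Their differences were 0.28 for Car2, -0.06 for Car3 and -1.06 for Car1. From rat to rat within groups, Car1 and Car2 ran opposite, with r = -0.70 and rho = -0.50 between deviations over 10 arrays, given as a description of arrays that share 1 normalization. After cyclic loess the r was -0.73. Control 1 lay farthest from its group mean in both genes, at 4.19 against 4.89 in Car1 and 6.76 against 6.30 in Car2. The part of control 1 in this r was not tested.

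The mitochondrial isozymes supply bicarbonate to carboxylating enzymes, Car5a chiefly in liver and Car5b in many tissues. Car5a read 8.09, 7.98, 8.46, 8.64 and 8.39 in controls 1 to 5 and 8.34, 8.60, 8.35, 8.93 and 8.42 in HMB 1 to 5. The groups overlapped, with controls 1 and 2 below all HMB rats and HMB 4 above all controls, and the difference was 0.22 ± 0.14 (SE, n = 5 per group). The brighter Car5b probe set read 5.56, 5.996, 5.48, 5.596 and 5.53 in controls and 5.17, 5.78, 5.48, 5.27 and 5.46 in HMB rats, in order of replicate number. It differed by -0.20 ± 0.13, with control 2 and HMB 2 the highest of their groups, and its second probe set by -0.26 ± 0.18. The 2 Car5b probe sets had little in common from rat to rat (r = 0.23, rho = 0.02, 10 arrays).

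The enzymes that use this bicarbonate were measured beside them. Of 14 carboxylases and urea cycle genes 0 passed and 0 had an unadjusted p under 0.05 (24.9% of all genes did), with a median of 0.01. Cps1, which makes carbamoyl phosphate from bicarbonate at the entry of the urea cycle, was at 13.20 in controls and 13.26 in HMB (difference 0.06 ± 0.07, SE, limma adjusted p = 0.589). Pc, pyruvate carboxylase of glucose synthesis, differed by -0.12 ± 0.08 (limma adjusted p = 0.364), the smallest p of the list.

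At the cell surface, Car4 is held by a lipid anchor, and Car9, Car12 and Car14 span the membrane with their catalytic domain outside. Car4 read 2.96, 2.66, 2.77, 3.04 and 3.01 in controls 1 to 5 and 3.49, 3.05, 3.19, 3.54 and 3.27 in HMB 1 to 5. All HMB rats lay above all controls, control 4 lying just under HMB 2, and the difference was 0.42 ± 0.11 (SE, n = 5 per group). This probe set was in the dimmest quartile of genes, whose median difference was 0.11. After cyclic loess the difference was 0.32, and with HMB 1 counted as a control 0.28. The second Car4 probe set gave 0.14 ± 0.10 and ran against the first from rat to rat (r = -0.20, rho = -0.42, 10 arrays).

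Car9 and Car12, known as hypoxia-inducible genes of tumours, were dim as well. Car9 read 3.71, 3.36, 3.15, 3.38 and 3.32 in controls 1 to 5 and 3.61, 3.62, 3.71, 3.56 and 3.62 in HMB 1 to 5. Control 1 lay as high as the highest HMB rat, and the other 4 controls lay below all HMB rats, with a difference of 0.24 ± 0.09 (SE) that was 0.32 without control 1 and 0.13 after cyclic loess. Car12 read 3.20, 2.79, 3.00, 2.89 and 2.92 in controls and 3.02, 2.98, 3.32, 3.16 and 3.09 in HMB rats, in order of replicate number. Its difference of 0.15 ± 0.09 was close to the 0.11 of the dimmest quartile and was 0.05 after cyclic loess.

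Targets of the hypoxia-inducible factors were set beside them. Of 19 measured 0 passed, 8 lay above 0 and 11 below, and the median was -0.05, or 0.03 after cyclic loess. Vegfa, the vascular growth factor, was at 8.55 in both groups (difference 0.00 ± 0.11, SE, limma adjusted p = 0.996). The smallest p belonged to Ndrg1 at 0.31 ± 0.09 (limma adjusted p = 0.0750) and Ankrd37 at -0.47 ± 0.14 (limma adjusted p = 0.0929), and 7 of the 19 had an unadjusted p under 0.05, against 24.9% of all genes. They went in both directions, with Pfkfb3 at 0.30 ± 0.10 and Higd1a at -0.23 ± 0.07 (limma adjusted p = 0.113 and 0.0948).

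Promoter sequences of RefSeq, from 250 bases before to 50 after a gene's start in GRCr8, matched 6 of the 10 genes, namely Car4, Car5a, Car5b, Car9, Car12 and Car14. Those of Car4 and Car9 are printed 5' to 3' because Car4 is the gene without overlap that has an entry and Car9 is the family's best-known hypoxia target. They lie at chr10:70325108-70325407 and chr5:62558774-62559073, both on the plus strand. Capitals mark every match, on either strand, to ACGTG, a core bound by hypoxia-inducible factors, or to GCGTG, a core bound by the aryl hydrocarbon receptor.
Car4: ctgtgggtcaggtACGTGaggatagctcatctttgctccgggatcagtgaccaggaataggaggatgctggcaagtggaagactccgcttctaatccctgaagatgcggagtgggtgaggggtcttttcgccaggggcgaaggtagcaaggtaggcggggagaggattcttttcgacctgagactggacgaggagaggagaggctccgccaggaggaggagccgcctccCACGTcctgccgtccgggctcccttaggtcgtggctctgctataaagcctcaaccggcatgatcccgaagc
Car9: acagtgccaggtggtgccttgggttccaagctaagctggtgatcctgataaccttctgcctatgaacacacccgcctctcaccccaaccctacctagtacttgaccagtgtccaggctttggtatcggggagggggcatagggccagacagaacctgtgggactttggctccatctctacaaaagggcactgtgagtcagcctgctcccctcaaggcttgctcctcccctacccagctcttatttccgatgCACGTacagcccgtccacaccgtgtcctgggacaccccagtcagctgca

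The Car4 window held 2 matches to ACGTG, the Car9 window 1, and neither held GCGTG. Car14 held 1 match to ACGTG, Car12 held 2 to each core, and Car5a and Car5b held neither. None of the 6 windows held CACGTG, in which matches to ACGTG on both strands overlap. Such short words are common. ACGTG occurred in 19.3% and GCGTG in 29.7% of 33469 promoters of the same length. A match describes letters, and nothing on binding was measured here.

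Car14, a transmembrane isozyme known from the hepatocyte surface, was steady within groups. Its brighter probe set read 8.57, 8.68, 8.73, 8.61 and 8.68 in controls 1 to 5 and 8.44, 8.59, 8.47, 8.44 and 8.48 in HMB 1 to 5. HMB 2 lay above control 1, and the other 4 HMB rats lay below all controls. The difference was -0.17 ± 0.06 (SE, n = 5 per group) and was -0.07 after cyclic loess and after quantile normalization. The second probe set gave -0.10 ± 0.08, and its sign turned after cyclic loess, to 0.02. The quartile of brightest genes, in which Car14 lies, had a median of -0.07.

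Car8 is a relative without catalytic activity, known for binding the inositol trisphosphate receptor. It read 9.73, 9.73, 9.75, 9.62 and 9.62 in controls 1 to 5 and 9.65, 9.54, 9.29, 9.63 and 9.46 in HMB 1 to 5. HMB 3, the lowest, was also the lowest of the 10 rats in both Car3 probe sets. The difference was -0.17 ± 0.08 (SE, n = 5 per group), -0.10 after cyclic loess and -0.05 in the fit that held the poly-A signal.

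**Figure D2:**
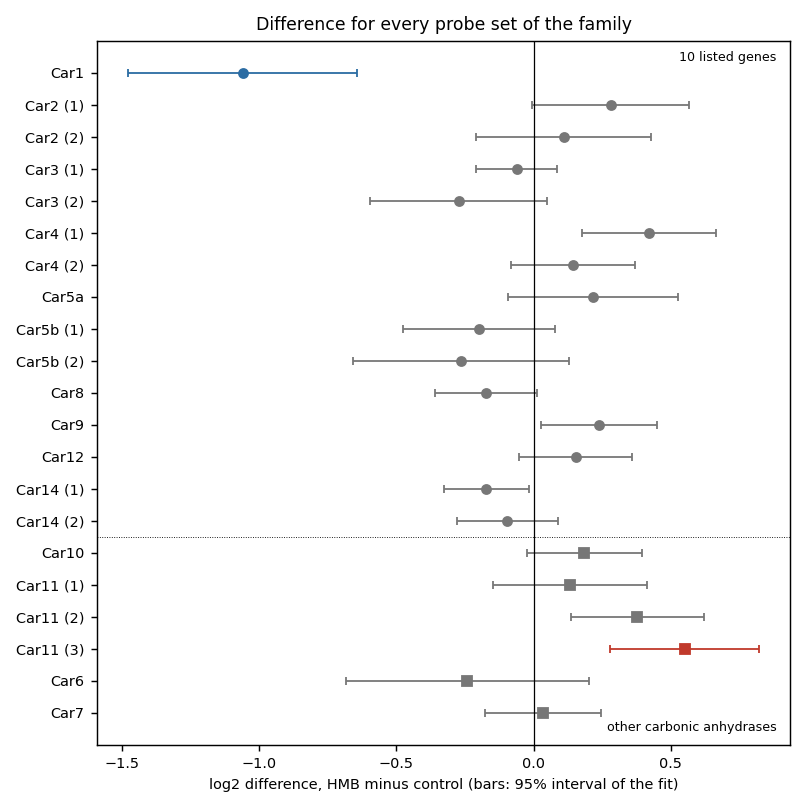
Log2 difference, HMB minus control, for each of the 15 probe sets of the 10 genes (circles) and the 6 of other carbonic anhydrases (squares), with bars for the 95% interval of the limma fit over all probe sets. Coloured points passed an adjusted p of 0.05, Car1 at -1.06 and the third Car11 probe set at 0.55, and numbers in brackets tell probe sets of a gene apart.

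The family members outside the 10 genes had 4 measured genes with 6 probe sets. Car11, another relative without catalytic activity, rose, with a difference of 0.55 ± 0.12 (limma adjusted p = 0.0492 over all genes). It read 7.15, 6.64, 6.65, 6.57 and 6.51 in controls 1 to 5 and 7.22, 7.30, 7.41, 7.36 and 6.98 in HMB 1 to 5. Control 1 lay above HMB 5, and the other 4 controls lay below all HMB rats. Its other probe sets gave 0.38 ± 0.11 and 0.13 ± 0.13, neither called (limma adjusted p = 0.0863 and 0.546 over probe sets). The call held in 6 of 23 other settings, with adjusted p from 0.0136 without control 1 to 0.321 with HMB 3 to HMB 5 left out, and after cyclic loess it was 0.0523 at a difference of 0.67. Leaving out any rat other than control 1 ended it, with the difference between 0.50 and 0.62, in fits where 0 to 353 of all genes passed against 244 with all rats.

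The remaining relatives did not pass. Car10 differed by 0.19 ± 0.09 (SE, limma adjusted p = 0.237), Car6, the secreted salivary isozyme, by -0.24 ± 0.21 (limma adjusted p = 0.483) and Car7, a cytosolic isozyme of brain, by 0.04 ± 0.09 (limma adjusted p = 0.838). Control values of Car6 ranged from 2.83 to 4.13. With Ptprz1, a phosphatase with a carbonic anhydrase-like domain, this list had 1 of 5 genes called, with a median of 0.08, which became 0.00 after cyclic loess.

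Partners that move bicarbonate and protons across membranes had 1 of 17 measured genes called. Slc26a4, the anion exchanger pendrin, rose, with a difference of 0.39 ± 0.09 (limma adjusted p = 0.0470), from a dim 2.72 to 3.11, and after cyclic loess it had a difference of 0.29 (adjusted p = 0.103). It passed in 5 of 21 other settings, with adjusted p from 0.0247 to 0.384. Slc4a2, an anion exchanger known from the bile canaliculus, differed by -0.34 ± 0.10 (limma adjusted p = 0.0781), with all HMB rats below all controls, and Slc4a4, the sodium-bicarbonate cotransporter, by -0.01 ± 0.10 (limma adjusted p = 0.973). The list's median was 0.11, and 9 of its 17 genes were in the dimmest quartile, where the median of all genes was also 0.11.

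**Figure D3:**
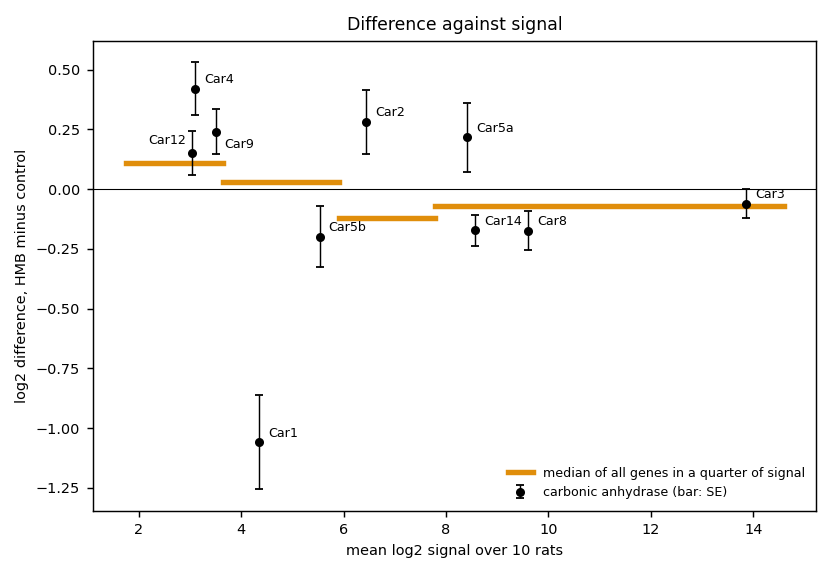
Log2 difference, HMB minus control, of the 10 genes (points with SE, n = 5 per group) against mean log2 signal over 10 rats, with orange bars for the median difference of all genes in each quartile of signal (0.11, 0.03, -0.12 and -0.07). Car4, Car9 and Car12 lie in the dimmest quartile and above 0, Car3, Car8 and Car14 in the brightest and below 0, Car5a in the brightest and above 0, and Car1 lies far below the bar of its quartile.

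Control 1 recurred in these comparisons. In 5 of the 10 genes, Car1, Car2, Car9, Car12 and Car14, it was the control nearest the HMB side, against 0 for control 2, 2 each for controls 3 and 4 and 1 for control 5. Its array had the lowest standard deviation of all log2 values among controls, 2.434, next to 2.431 in HMB 1. The part of that measure in these values was not tested. Without control 1 the number of genes called over the whole array was 1014, against 244 with it. The nearest control was not counted over all genes, so the pattern cannot be called particular to this family.

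**Figure D4:**
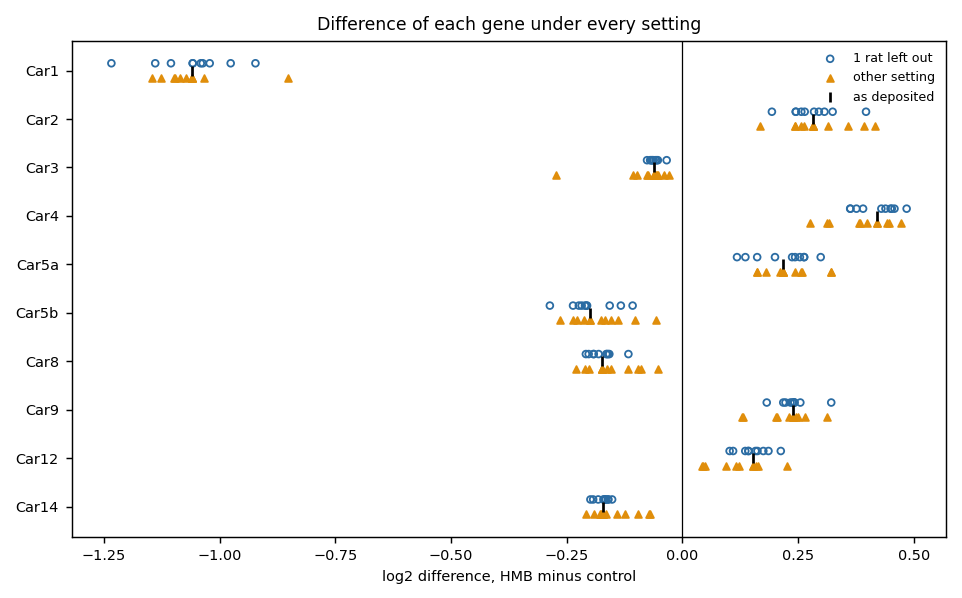
Log2 difference, HMB minus control, of each gene with the data as deposited (black ticks), with 1 rat left out (blue circles) and under other settings (orange triangles). Every gene stays on its side of 0 in each setting shown, and Car1 runs from -1.23 to -0.85.

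All 10 genes kept the sign of their difference in each of the 23 other settings in which they were measured. Car1 and Car5b could be fitted in 22 settings, Car4, Car9 and Car12 in 21 because of the filters on mean signal, and the other 5 genes in all 23. For the genes other than Car1 and Car4 the differences lay within -0.29 and 0.42 in every setting.

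Patterns among rats that the group difference does not hold were read from deviations from the group means over 10 arrays. For Car1 the 5 most similar of 7109 candidate genes were Rab4a (r = 0.92), Arglu1 (0.90), Dlc1 (0.90), Chfr (0.90) and Frk (0.90). The 3 most opposite were Pdap1 (r = -0.96), Tpgs2 (-0.90) and Iqsec1 (-0.87). None of these 8 genes passed between the groups (limma adjusted p from 0.110 to 0.989). For Car3, with 7108 candidates, they were Arhgap5 (r = 0.94), Galnt2 (0.93), Apoc3 (0.92), St8sia3 (0.91) and C8g (0.91), with Pnisr (-0.92), Mlxipl (-0.90) and Git1 (-0.88) opposite. The extremes of so many candidates over 10 arrays are high by selection, and the arrays share 1 normalization. In controls alone the r of Car3 with Arhgap5 was 0.23, against 0.99 in HMB rats.

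Among the 10 genes themselves, Car2 and Car9 were the pair that ran most alike within groups (r = 0.79, rho = 0.68) and Car4 and Car5b the most opposite (r = -0.82, rho = -0.76), over 10 arrays. After cyclic loess these were 0.71 and -0.78. Of the 10 rats, control 1 lay farthest from its group mean in Car2 (6.76 against 6.30) and in Car9 (3.71 against 3.38). The part of control 1 in the r of that pair was not tested. Car1 had an r of 0.48 with Hbb, -0.28 with Alas2 and 0.02 with Slc4a1, and Car3 had an r of 0.77 but a rho of 0.32 with Cyp2c11.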

How the data were processed

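The authors deposited log2 signal values for 31099 probe sets on 10 arrays, made with RMA per the submitters' processing notes (version not given), and these were used as deposited. The 57 Affymetrix controls were left out of tests. Of 31042 probe sets, 20826 named 1 gene in the platform annotation, 436 several and 9780 none. Symbols were updated by gene identifier for 20758. The probe set with the highest mean stood for each of 14217 genes. limma 3.58.1 (R 4.3.3; lmFit, eBayes) fitted HMB minus control with 8 residual degrees of freedom, and Benjamini-Hochberg adjustment ran over all genes or probe sets, at 0.05. The step was tested on simulated data with independent noise in each gene and array. Those data lacked the array measures that moved with the groups here, so the test does not give the error rate in these arrays. No 2 of the 45 array pairs were identical. No detection calls were used, so no gene is called absent.

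The 10 genes, the 17 lists of companions and cell type markers and the tests were chosen with earlier results of these data known. Named genes are all 10 genes, the other family members, a set of partners and markers fixed by name, genes with the smallest p in a list, and for Car1, Car3 and the gene with the largest within-group SD (Car1 again) the 5 most similar and 3 most opposite among genes at or above the median signal. Other settings were cyclic loess, quantile or median scaling, filters on the lowest 25% and 50%, a trended robust prior, array weights, another probe set per gene, 2 covariates, HMB 1 as a control, and rats left out. Figures used matplotlib 3.10.9.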

Additional observations from a re-analysis of the deposited data

Results flagged for a closer look

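In 2 of 20 groups of 5 rats (10 genes, 2 groups each) 1 rat stood far from the rest, its gap to the nearest rat being more than 0.71 of the group's range. About 1 in 20 such groups is expected by chance. For Car5b in controls the gap was 0.777 of the range, with control 2 at 5.996 and the next rat at 5.596. For Car14 in HMB rats it was 0.723, with HMB 2 at 8.59 and the next at 8.48.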

How the results depend on the processing

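The number of carbonic anhydrases called was 1 of 10, and it was 0 when the lowest 50% of genes were left out (which removes Car1), with HMB 1 counted as a control, with the poly-A or the GAPDH covariate, with HMB 3 to HMB 5 left out and at an adjusted p of 0.01, and 2 with array weights. It ran from 0 to 3 as rats were left out in turn, with 0 in 8 of 10 such fits. The number of probe sets called, 1 of 15, was 0 under the same settings except the GAPDH covariate and array weights, where it stayed at 1, became 2 with HMB 1 and HMB 2 left out, and ran from 0 to 2 as rats were left out. Over all genes the count of 244 ran from 0 to 1014 across settings. The 10 genes kept their sign, but the second Car14 probe set turned from -0.10 to 0.02 after cyclic loess, and the medians of 11 of the 17 lists turned in at least 1 setting (48 values), the hypoxia list from -0.05 to 0.03 after cyclic loess among them. Alternative values were also compared for the genes other than Car1, for the medians and counts of the companion lists and for the similarities between genes. Of these, 947 kept within the spread and 84 moved, with differences of Car3, Car8 and Car14 among those that moved. No paired analysis was possible because the replicate numbers only follow the order of deposition. With 5 rats a group and no detection calls, the number of arrays limits the precision for dim genes such as Car4, Car9 and Car12, whose 95% intervals ran from 0.18 to 0.66, 0.03 to 0.45 and -0.05 to 0.35. The family was selected on these differences, so the intervals are a description and no test.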

Other observations

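Markers of other liver cells had 0 called in each list. Of 5 endothelial markers all 5 lay below 0 with a median of -0.09, which was -0.004 after cyclic loess. The list's mean ran from 6.75 to 7.997 over controls and from 6.91 to 7.45 over HMB rats. The 7 macrophage and neutrophil markers had a median of 0.02, the 8 stellate cell and fibroblast markers one of -0.11 and the 7 gastric and pancreatic genes one of 0.13. Hepatocyte markers had a median of -0.05 over 7 genes.

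Zonal markers of the liver lobule gave similar counts. The 10 pericentral genes had a median of 0.02 and 0 called, with Glul, glutamine synthetase of the innermost hepatocytes, at 0.00 ± 0.12 (SE, n = 5 per group, limma adjusted p = 0.994). Cyp1a2 had the smallest p of that list, at 0.44 ± 0.10 (limma adjusted p = 0.0545), with all HMB rats above all controls, and it passed in 6 of 23 other settings, with adjusted p from 0.0338 with array weights to 0.399 with HMB 3 to HMB 5 left out. The 10 periportal genes had a median of -0.01 and 0 called, and the 3 sex-chromosome genes one of 0.10 and 0 called.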
